A study of Mus musculus with 2 samples.

Results

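Posterior Hox-positive smooth muscle cells (SMCs) are the SMCs of the mouse thoracic aorta that held a transcript of Hoxa7, Hoxb6, Hoxb7 or Hoxb8 and none of the transcripts that mark 2 other SMC programmes. They were chosen by their own transcript counts, in 3 steps. Cells needed more than 200 genes, 3000 to 25000 unique molecular identifiers (UMIs, the tags by which captured RNA molecules are counted) and a mitochondrial share under 10%. SMCs then needed at least 5 UMIs of Myh11, Cnn1 and Lmod1 together, at least 5 UMIs of the lineage reporter eGFP, and no UMI of Pecam1, Cdh5, Ptprc or Pdgfra, which mark endothelial cells, leukocytes and fibroblasts. Of these, members had at least 1 UMI of the 4 Hox genes, no UMI of Hand2, Hand2os1 or Tbx20 (the Hand2/Tbx20 programme) and no UMI of Dlx6, Dlx6os1 or Msx2 (the Dlx6/Msx2 programme). The rule found 448 cells among 2226 SMCs of the gate and 15210 deposited cells: 238 of 1306 SMCs in aorta 1 and 210 of 920 in aorta 2.

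The study asked how loss of TGF-β signaling in SMCs makes the aorta prone to dissection, and these libraries hold the cells of normal aortas only. The 2 mice were C57BL/6J animals of the genotype GFPiSMC, labelled WT, which carry the Cre recombinase CreERT2 under the Myh11 promoter and the membrane reporter mT/mG. From an age of 3 weeks they received tamoxifen (1 mg/d, 5 days, intraperitoneal), so that eGFP marks cells that expressed Myh11 at that time and their descendants, and both thoracic aortas were taken at 12 weeks. Both animals were male, per the study's methods. Each aorta was digested in the cold, viable cells were sorted without regard to GFP, and 1 droplet library of the 3′ chemistry was made per aorta. The 2 aortas form 1 group (n = 2), and the comparisons are between classes of SMCs within them. No label places a cell along the aorta.

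Hox genes encode homeodomain transcription factors that lie in clusters, and their order in a cluster follows the order of their expression along the body axis, with genes of low number expressed toward the head and genes of high number toward the tail. Adult mesenchymal cells often keep the Hox code of their position. The SMCs of the aorta have mixed embryonic origins: neural crest and the second heart field supply the root, ascending aorta and arch, and paraxial mesoderm, the tissue of the somites, supplies the descending thoracic aorta. Hand2 and Tbx20 are known from heart and outflow tract development, and Dlx6 and Msx2 from the neural crest of the pharyngeal arches.

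The 4 genes of the rule lie in 2 clusters (mm10, annotated with GENCODE vM21). Hoxa7 (ENSMUSG00000038236) is at chr6:52214491-52221854 on the minus strand and overlaps the antisense RNA Hoxaas3. Hoxb8 (ENSMUSG00000056648, chr11:96281905-96285315), Hoxb7 (ENSMUSG00000038721, chr11:96286623-96290162) and Hoxb6 (ENSMUSG00000000690, chr11:96292476-96301569) follow one another on the plus strand of chromosome 11, and Hoxb6 overlaps the antisense RNA Hoxb5os. Promoter windows from RefSeq (GRCm38.p6, 250 bases before to 50 after the start) are shown for Hoxa7 and Hoxb8, the members of each cluster with an entry, because UMIs of both clusters chose the cells (Hoxb6 and Hoxb7 had none). Capitals mark matches to the composite Hox and Pbx motif TGATNNAT on either strand, and no match to the Meis motif TGACAG was found. The Hoxa7 window lies at chr6:52218524-52218823, minus strand, and the Hoxb8 window at chr11:96281655-96281954, plus strand. The Hoxa7 window is inside the GENCODE span of the gene, so its RefSeq start is not the GENCODE one.
Hoxa7: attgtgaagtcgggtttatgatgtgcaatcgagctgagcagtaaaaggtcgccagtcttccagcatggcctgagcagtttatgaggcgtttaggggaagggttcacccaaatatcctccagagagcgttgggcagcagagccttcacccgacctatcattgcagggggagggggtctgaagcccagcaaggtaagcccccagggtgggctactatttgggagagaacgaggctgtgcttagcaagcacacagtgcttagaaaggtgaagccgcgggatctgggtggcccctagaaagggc
Hoxb8: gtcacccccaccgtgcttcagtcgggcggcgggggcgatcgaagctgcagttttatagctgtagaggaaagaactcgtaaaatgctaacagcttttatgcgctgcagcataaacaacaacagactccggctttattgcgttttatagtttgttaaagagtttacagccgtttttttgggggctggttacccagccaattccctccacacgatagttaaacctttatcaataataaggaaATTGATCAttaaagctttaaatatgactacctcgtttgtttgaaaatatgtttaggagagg
The Hoxb8 window held 1 such match, which begins 11 bases before the annotated start, and the Hoxa7 window held none. Over 32851 promoter windows of the same length, 8.85% held TGATNNAT and 19.2% held TGACAG. GC content was 55.7% in the Hoxa7 window and 42.3% in the Hoxb8 window.

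The members had the transcripts of differentiated SMCs. Markers that the gate did not use were at 25224 and 25378 UMIs per 1000000 UMIs of the summed class (counts per 1000000, CPM, aorta 1 then aorta 2) for Acta2, smooth muscle actin, and at 14081 and 13679 CPM for Tagln, transgelin. The median depth per member was 9731 and 9075 UMIs, against 8584 and 8197 UMIs in the other SMCs, so the members were the deeper cells in both aortas. The deposited files held 8947 and 6263 cells, of which 5275 and 3524 passed the cell filter. The libraries shared 18 barcodes, of which 1 was an SMC of the gate and 0 were members, and Scrublet called 1 and 2 members as doublets, which were kept. A transcript of tdTomato, the reporter before recombination, was found in 7.56% of members in aorta 1 and 6.19% in aorta 2, against 7.77% and 5.35% of the other SMCs.

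Members made up 18.2% of SMCs in aorta 1 (exact 95% binomial interval 16.2 to 20.4) and 22.8% in aorta 2 (20.2 to 25.7); such intervals cover counting error only. Cells of the Hand2/Tbx20 programme alone were 401 and 176, those of the Dlx6/Msx2 programme alone 196 and 168, those of more than 1 programme 45 and 35, and those with no UMI of any programme 426 and 331. The Hand2/Tbx20 class took 30.7% of SMCs in aorta 1 and 19.1% in aorta 2, the largest gap between the aortas among the classes. These are shares of recovered cells, which depend on digestion and sorting. With at least 2 Hox UMIs required and cells with exactly 1 left out, members were 130 of 1181 and 123 of 822 SMCs, and with each cell thinned to 3000 UMIs before the rule was applied (gate at 1 UMI) they were 10.4% and 13.1%.

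**Figure D1:**
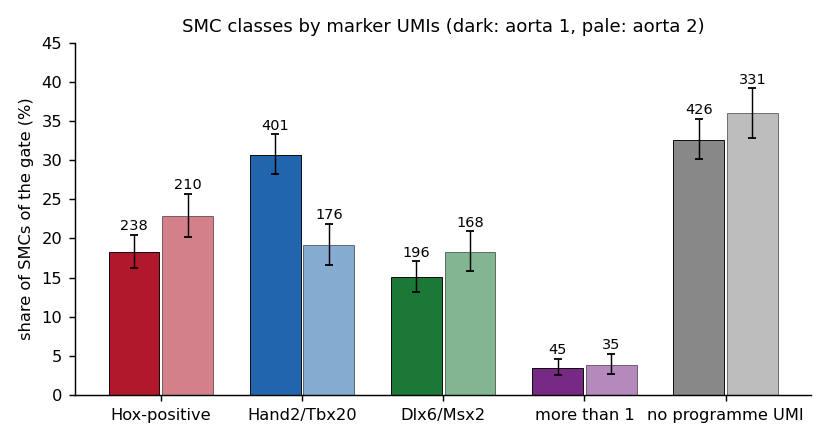
Share of SMCs of the gate in each class, in percent, for aorta 1 (dark bars) and aorta 2 (pale bars), with exact 95% binomial intervals and the number of cells above each bar. Hox-positive SMCs were 238 and 210 cells, and the class without a UMI of any programme was the most numerous in both aortas.

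Hoxa7 supplied most of the Hox UMIs that chose the members. It was found in 145 of 238 members in aorta 1 (60.9%) and in 143 of 210 in aorta 2 (68.1%), at 115 and 129 CPM. Hoxb7 was found in 95 and 91 members (49.5 and 63.9 CPM), Hoxb6 in 75 and 51 (34.0 and 30.7 CPM) and Hoxb8 in 39 and 43 (18.5 and 25.0 CPM). Both clusters were seen together in many cells: 76 and 83 members held Hoxa7 and a Hoxb gene, 69 and 60 held Hoxa7 alone and 93 and 67 held Hoxb genes alone. All 4 genes were found together in 4 members of each aorta. The other SMCs held these genes only in cells of more than 1 programme, by the rule, and these levels chose the cells and were not tested.

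Many members lay at the threshold of the rule. In aorta 1, 108 members (45.4%) held exactly 1 Hox UMI, 59 held 2 and 71 held 3 or more, and in aorta 2 the numbers were 87 (41.4%), 63 and 60, with a maximum of 9 in both. The median depth was 8376 and 7985 UMIs in members with 1 Hox UMI and 11627 and 10390.0 UMIs in members with 3 or more. Just outside the threshold, the cells with no UMI of any programme had a median of 6938 and 7472 UMIs, and a cell without a Hox UMI at this depth may still express the genes.

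UMIs of the Hox genes and of the other programmes were found in the same cell in few SMCs. Before any exclusion, 13 of 434 SMCs with a Hand2/Tbx20 UMI held a Hox UMI in aorta 1 (3.00%, exact 95% interval 1.60 to 5.07) and 12 of 205 in aorta 2 (5.85%, 3.06 to 10.002). Among SMCs without a Hand2/Tbx20 UMI the shares were 28.7% (250 of 872) and 30.2% (216 of 715). The Hand2/Tbx20-positive SMCs were the deeper ones, with a median of 9931 against 8056 UMIs and 9401 against 7946 UMIs. A Hox UMI was found in 12 of 228 SMCs with a Dlx6/Msx2 UMI in aorta 1 (5.26%) and in 7 of 192 in aorta 2 (3.65%), against 23.3% and 30.4% of those without one. The Dlx6/Msx2-positive SMCs were the shallower ones, with a median of 8276 against 8806 UMIs and 7798 against 8556 UMIs. The part of depth in these shares was not tested. UMIs of all 3 programmes were found in 0 and 1 cells. The 4 Hox genes and the marker genes of the programmes were picked from clusters of these same cells, so these shares are a description and were not tested.

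The share of cells with a Hox UMI was set beside that of immune cells, in which these genes are known to be low. The immune gate allowed at most 1 UMI of eGFP and at most 1 of the SMC genes of the gate, so its droplets are also low in SMC RNA, and the source of their Hox UMIs was not tested. In aorta 1, 9 of 787 immune cells held a Hox UMI (1.14%, 0.524 to 2.16 as exact 95% interval) and 12 of 467 did in aorta 2 (2.57%, 1.33 to 4.45), at a median depth of 5706 and 6129 UMIs. In the SMCs of the gate the share was 20.1% and 24.8%, at a median of 8696 and 8352 UMIs. Thinned to 3000 UMIs per cell, with no cell of these gates left out, the shares were 0.381% and 1.07% in immune cells and 10.3% and 13.8% in SMCs.

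Endothelial cells and fibroblasts of the same aortas held the genes more often than SMCs. A Hox UMI was found in 33.3% and 33.6% of endothelial cells (134 of 403 and 100 of 298) and in 40.0% and 39.0% of fibroblasts (324 of 809 and 239 of 613). At 3000 UMIs per cell the shares were 26.6% and 24.5% in endothelial cells and 26.2% and 25.1% in fibroblasts, and the exact intervals of both lay above those of the SMCs in each aorta. Summed over the 4 genes, endothelial cells were at 117 and 125 CPM and fibroblasts at 131 and 113 CPM. All SMCs of the gate were at 47.1 and 65.7 CPM and immune cells at 1.65 and 3.84 CPM. Endothelial cells had at least 3 UMIs of Pecam1 and Cdh5, fibroblasts at least 1 of Pdgfra and immune cells at least 2 of Ptprc, each with at most 1 UMI of eGFP and at most 1 of Myh11, Cnn1 and Lmod1.

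**Figure D2:**
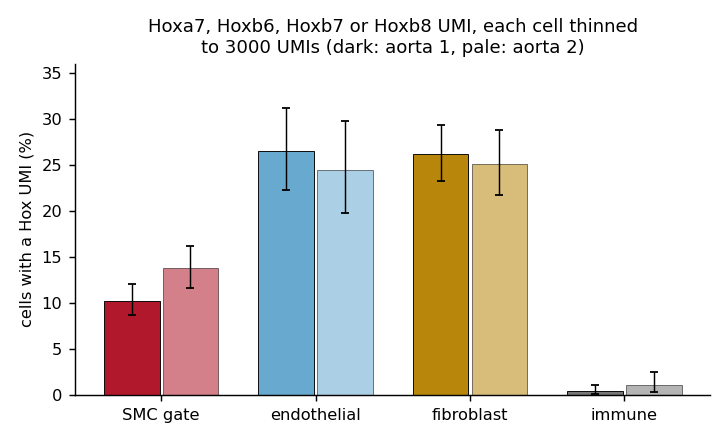
Share of cells, in percent, with at least 1 UMI of Hoxa7, Hoxb6, Hoxb7 or Hoxb8 after each cell was thinned to 3000 UMIs, by cell gate, for aorta 1 (dark bars) and aorta 2 (pale bars), with exact 95% binomial intervals. Immune cells were at 0.381% and 1.07%, SMCs at 10.3% and 13.8%, and endothelial cells and fibroblasts between 24.5% and 26.6%.

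Several Hox genes that the rule did not use were higher in members than in the other SMCs. Of 35 such genes, 10 had enough UMIs to be tested. Hoxa5, Hoxb2, Hoxb4, Hoxb5, Hoxc4 and Hoxc6 rose (6 genes) and Hoxa3 fell, against a background of 2.22% of 11258 genes called higher in members and 3.05% called lower. Hoxc4 and Hoxc6 reached the filter on low counts only through the members, where they are high, so these calls follow in part from the filter. The filter asked for 2.45 CPM in 2 sums, and 92 genes met it through the members alone, of which 20 were called higher. Hoxd4, with 0 UMIs in members and 21 and 15 UMIs in the other SMCs, was not tested. These genes share clusters or a positional code with the genes that chose the cells, and the list was drawn up with earlier results of these data known, so the count is no independent evidence of its direction.

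Hoxc6 and Hoxc4 lie in the HoxC cluster on chromosome 15, from which no gene entered the rule. Hoxc6 was at 9.05 and 14.0 CPM in members (21 and 27 UMIs) and at 1.30 and 0.856 CPM in the other SMCs, with no overlap between the classes, a log2 fold change of 3.35 ± 0.40 (SE, edgeR adjusted p = 8.96e-05). Hoxc4 was at 4.31 and 4.68 CPM against 0.216 and 0.514 CPM (log2 fold change 3.69 ± 0.62, adjusted p = 0.00156), on 10 and 9 UMIs. Hoxc6 overlaps Hoxc5 on the same strand, and reads there could be split between them.

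In the HoxB cluster Hoxb5, the neighbour of Hoxb6, was at 19.0 and 20.3 CPM in members and at 5.94 and 8.56 CPM in the other SMCs (log2 fold change 1.51 ± 0.24, edgeR adjusted p = 0.000974). Hoxb4 was at 32.7 and 37.9 CPM against 19.8 and 26.2 CPM, and Hoxb2 at 53.4 and 60.8 against 34.7 and 40.6 CPM, with log2 fold changes of 0.68 ± 0.17 and 0.65 ± 0.13. Hoxb3 was at 14.2 and 14.6 CPM in members and at 14.7 and 13.0 CPM in the other SMCs and did not pass (adjusted p = 0.940). Hoxb5 overlaps Hoxb5os, Hoxb2 overlaps Hoxb3os, and the sources used here do not say whether counting used strand.

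In the HoxA cluster 1 gene rose and 1 fell. Hoxa5 was at 23.7 and 30.2 CPM in members against 11.9 and 13.9 CPM in the other SMCs, a log2 fold change of 1.11 ± 0.19 (edgeR adjusted p = 0.00197). Hoxa3 was lower, at 27.6 and 28.6 CPM against 41.5 and 42.3 CPM (log2 fold change -0.53 ± 0.14, adjusted p = 0.0375), and Hoxa2 and Hoxa4 did not pass. Hoxa3 spans Hoxa4, Hoxa5 and Hoxa6 on its strand, so their reads may not be fully separate.

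Genes further toward the tail end of the clusters had too few UMIs to be tested. Members held 6 UMIs of Hoxa6 in each aorta, and the other SMCs held 1 and 0. Hoxa9 gave 11 and 4 UMIs in members against 2 and 0, and Hoxb9 gave 5 and 10 against 3 and 0. Hoxc8 gave 12 and 4 UMIs against 2 and 1, and Hoxc9 gave 4 and 1 against 1 and 0, so members, the smaller class, held at least as many UMIs of each of these genes in both aortas. Hoxa10 and Hoxc10 gave 1 UMI each, in members, and those of higher number gave none in SMCs of the gate. Of the HoxD cluster, members held 0 UMIs in either aorta, where 3 UMIs would be 1.29 and 1.56 CPM, and the other SMCs held 21 and 15 UMIs of Hoxd4 (2.27 and 2.57 CPM).

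**Figure D3:**
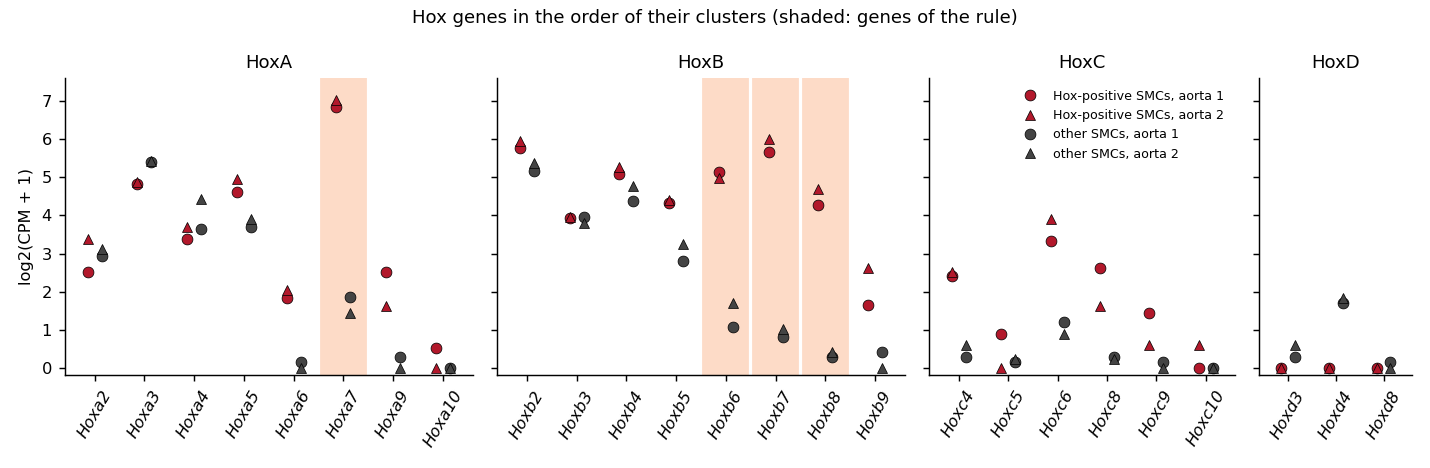
Level of the Hox genes, as log2(CPM + 1), in the order of each cluster from low to high number, in Hox-positive SMCs (red) and the other SMCs (dark grey), with circles for aorta 1 and triangles for aorta 2. Shading marks the 4 genes of the rule, whose difference is set by the choice of cells. Both member values lie above both values of the other SMCs from Hoxa5 to Hoxa9, from Hoxb4 to Hoxb9 and from Hoxc4 to Hoxc9, except at Hoxc5, and Hoxb3 lies close in both classes.

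Noncoding RNAs of the clusters differed among themselves. Of 11 listed, 5 were tested against the other SMCs, 0 rose and 2 fell, with a median log2 fold change of 0.22. Hoxb3os fell from 36.5 and 37.7 CPM in the other SMCs to 12.9 and 8.84 CPM in members (log2 fold change -1.70 ± 0.19, edgeR adjusted p = 5e-05). Hoxaas2, antisense at Hoxa3, was at 7.76 and 9.36 CPM against 16.6 CPM in both aortas (log2 fold change -0.92 ± 0.23, adjusted p = 0.0292). Hotairm1, a noncoding RNA of the HoxA cluster, was at 69.8 and 55.1 CPM in members against 59.8 and 49.7 CPM and did not pass (adjusted p = 0.526). Hoxb5os, at the neighbouring gene Hoxb5, was at 8.19 and 6.24 CPM against 2.05 and 4.11 CPM, without overlap, and did not pass (1.37 ± 0.41, adjusted p = 0.0714; 0.00937 with the aorta as a block). It rose against the Hand2/Tbx20-positive SMCs, which held 0 and 1 UMI of it (adjusted p = 0.00167), and against the Dlx6/Msx2-positive SMCs, which held 1 and 2 (adjusted p = 0.00609). Hotairm1 rose against the Dlx6/Msx2-positive SMCs too (0.58 ± 0.19, adjusted p = 0.0393).

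Hox proteins bind DNA together with Pbx and Meis homeodomain proteins. Of 9 such cofactor genes 8 were tested, 0 rose and 3 fell. Meis1 was at 24.1 and 16.6 CPM in members against 34.8 and 32.7 CPM in the other SMCs (log2 fold change -0.67 ± 0.18, edgeR adjusted p = 0.0367), and Meis2 at 40.5 and 39.0 against 73.1 and 57.6 CPM (-0.68 ± 0.15, adjusted p = 0.0117). Hoxa3, Hoxb4, Hoxaas2, Meis1 and Meis2 each lost the call in several alternatives, with adjusted p up to 0.962. Of 14 alternatives Hoxb2 and Hoxb5 lost it in 2 each (adjusted p up to 0.0903 and 0.454). Hoxa5 and Hoxc6 lost it in 1 each (up to 0.176 and 0.0992).

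Retinoic acid, made from vitamin A, is a known inducer of Hox genes. Of 19 genes of its pathway 10 were tested, and 2 rose and 0 fell. Rbp4, the retinol carrier, was at 277 and 198 CPM in members against 146 and 148 CPM (log2 fold change 0.74 ± 0.12, edgeR adjusted p = 0.00125), and Dhrs3, which turns retinal back to retinol, at 190 and 159 against 134 and 103 CPM. The classes did not overlap for either gene. The median log2 fold change over the 10 genes was 0.14. For Dhrs3 the log2 fold change was 0.05 with cells thinned to 3000 UMIs (adjusted p = 0.974).

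Across all 11258 genes tested, 250 rose and 343 fell in members against the other SMCs, of which 69 and 208 changed by over 2-fold. With the aorta as a block in the model, since both classes come from the same animals, 560 rose and 625 fell. The comparison is not free of the rule. Cells of the other programmes are excluded from members by their UMIs, so genes that go with Hand2, Tbx20, Dlx6 or Msx2 are low in members by construction, and genes that go with the 4 Hox genes are high. What follows gives the size of these differences.

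The 15 genes with the largest rise included signals and matrix proteins. This ranking and those that follow take only genes with at least 30 UMIs in the higher class of each aorta. Sema3a, a semaphorin that repels growing axons and migrating cells, was at 24.6 and 32.2 CPM in members and at 4.10 and 3.25 CPM in the other SMCs, a log2 fold change of 2.94 ± 0.24 (edgeR adjusted p = 1.67e-06). Tnc, the matricellular protein tenascin C, was at 59.0 and 53.5 CPM against 15.3 and 13.5 CPM (log2 fold change 1.99 ± 0.15, adjusted p = 5.88e-07). Both genes were higher in each aorta with no overlap between the classes. Ccn5, a matricellular protein that restrains SMC growth, was at 95.2 and 103 against 44.4 and 37.0 CPM, and Vegfd, a growth factor of lymphatic vessels, at 18.1 and 31.7 against 9.18 and 9.76 CPM. Angptl4, a secreted inhibitor of lipoprotein lipase, was at 16.8 and 15.6 against 7.99 and 5.14 CPM, and Tafa1, a secreted chemokine-like protein, at 37.1 and 42.1 against 10.8 and 21.9 CPM.

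Receptors, enzymes and less known genes made up the rest. P2rx1, the ATP-gated channel through which sympathetic nerves contract arteries, was at 52.1 and 41.6 CPM against 14.3 and 12.8 CPM (log2 fold change 1.83 ± 0.16, edgeR adjusted p = 3.98e-06). Enpep, the aminopeptidase that trims angiotensin II, was at 22.8 and 28.6 CPM against 8.21 and 4.45 CPM (log2 fold change 1.98 ± 0.27, adjusted p = 0.000217). Lrrc32, which holds latent TGF-β at the cell surface, was at 26.7 and 26.5 CPM against 10.8 and 9.08 CPM (log2 fold change 1.44 ± 0.20, adjusted p = 0.000259). In all 3 genes every member sum lay above every sum of the other SMCs. P3h2, a prolyl hydroxylase of basement membrane collagen, was at 34.5 and 41.6 against 11.9 and 15.1 CPM, and Ndrg1, a gene induced by stress and hypoxia, at 63.3 and 61.9 against 24.0 and 20.2 CPM. Ccdc3, a secreted protein, was at 285 and 324 CPM against 96.7 and 115 CPM, with the smallest standard error of the 15 genes (log2 fold change 1.57 ± 0.10, adjusted p = 9.71e-08). Ccdc42 and Aknad1 rose by 1.33 and 1.41 on the log2 scale, and Hoxb5 is given above. At 3000 UMIs per cell, Sema3a, Enpep, P3h2, Hoxb5, Vegfd, Aknad1, Tafa1, Ccdc42 and Angptl4 no longer passed (log2 fold changes 0.79 to 1.71), and Tnc, P2rx1, Ccdc3, Ndrg1, Lrrc32 and Ccn5 still did.

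Of the 15 genes with the largest fall, 8 had 0 UMIs in members of both aortas. These 8 reached the filter on low counts only through the other SMCs, where they are high, so their calls follow in part from the filter. Gm34030 was at 11.9 and 5.82 CPM in the other SMCs, which makes it at least 9.19-fold and 3.73-fold lower in members when 3 UMIs per sum are taken as the floor. Chrdl2, a BMP antagonist, was at least 7.27-fold and 4.72-fold lower, Coch, the matrix protein cochlin, at least 4.18-fold and 6.92-fold, and Fgf12, an intracellular regulator of sodium channels, at least 4.68-fold and 5.71-fold. For Pde1c, a phosphodiesterase of proliferating SMCs, the bounds were 5.76-fold and 3.84-fold. Dlx1, Dlx2 and Rasd2 were the other 3, with bounds between 2.67-fold and 3.51-fold. Dlx1 and Dlx2 belong to the family of the excluded Dlx6.

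The other 7 genes were present in members as a few UMIs. All but Adamtsl1 were under 2.45 CPM in members and also reached the filter only through the other SMCs. Adamtsl1, a matrix protein, was at 3.45 and 3.12 CPM in members (8 and 6 UMIs) against 77.1 and 91.6 CPM in the other SMCs, a log2 fold change of -4.61 ± 0.22 (edgeR adjusted p = 5.19e-09). Gng2, a G protein subunit, gave 5 and 0 UMIs in members against 26.8 and 36.5 CPM. Members held 1 UMI in all of Mdga2, Eps8, Negr1 and Pak7, where the other SMCs were at 15.1 and 18.7, 8.42 and 9.93, 5.94 and 9.93, and 6.48 and 5.82 CPM. Upk3b, a uroplakin of mesothelial cells, gave 2 and 1 UMIs in members against 22.2 and 10.6 CPM. Its level was 52.6 and 154 CPM in the few SMCs of more than 1 programme, and with members chosen by the Hox UMI alone its log2 fold change was 0.60 (adjusted p = 0.840). Upk3b lost the call in 2 further alternatives. Of the 15 genes that fell, Chrdl2, Coch, Fgf12, Dlx1, Eps8 and Negr1 lost it in 1 alternative each and Pak7 in 2 (adjusted p up to 0.386).

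Transcription factors with known regional roles changed in both directions. Of 51 listed, 26 were tested, 4 rose and 9 fell (5 and 11 with the aorta as a block), with a median log2 fold change of -0.17 (0.00 over all genes). The 4 that rose were Tbx18, Nr2f2, Pax1 and Tcf15. Tcf15 and Pax1 are known as genes of the somite and its sclerotome. Tcf15 gave 9.91 and 2.60 CPM in members against 0.756 and 0.343 CPM (log2 fold change 3.45 ± 0.63, edgeR adjusted p = 0.00302), and Pax1 3.02 and 3.12 against 0.540 and 0.856 CPM (2.20 ± 0.60, adjusted p = 0.0455). Both classes stayed apart, but Tcf15 and Pax1 reached the filter on low counts only through the members, where they are high, and Pax1 rested on 7 and 6 UMIs in members and its adjusted p ranged up to 0.449 over the alternatives. Tbx18, a gene of mural cells and epicardium, was at 47.4 and 44.7 against 32.1 and 29.5 CPM, and Nr2f2, a nuclear receptor of veins and mesenchyme, at 68.1 and 58.7 against 44.6 and 34.8 CPM. Of 14 alternatives Tbx18 lost the call in 3 and Nr2f2 in 1 (adjusted p up to 0.254 and 0.282).

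The 9 regional factors that fell were Tbx3, Dlx1, Dlx2, Dlx5, Sox9, Tfap2b, Prrx2, Foxf1 and Osr1. Several are textbook genes of neural crest and pharyngeal arch mesenchyme. Tbx3, Dlx1, Dlx2 and Dlx5 were under 2.45 CPM in members. They reached the filter on low counts only through the other SMCs, where they are higher, so these calls follow in part from the filter. Prrx2 was at 9.05 and 13.0 CPM in members against 77.5 and 93.0 CPM (log2 fold change -2.92 ± 0.18, edgeR adjusted p = 9.71e-08). Osr1 was at 169 and 153 against 382 and 399 CPM (-1.23 ± 0.09, adjusted p = 4.06e-07). Sox9 was at 8.62 and 5.20 against 34.8 and 29.3 CPM, Dlx5 at 1.72 and 1.56 against 29.3 and 36.5 CPM, and Tfap2b at 3.88 and 3.12 against 22.2 and 33.6 CPM. None of these classes overlapped. Since members exclude cells with Dlx6 or Msx2 UMIs, a fall of genes that share those cells is built into this comparison.

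Some contractile genes were slightly higher in members than in the other SMCs. Of 36 listed, 35 were tested, 9 rose, 0 fell and 26 did not pass, with a median log2 fold change of 0.21. The list summed to 89233 and 90734 CPM in members, 79202 and 79048 CPM in the other SMCs and 87618 and 88658 CPM in the Hand2/Tbx20-positive SMCs, against which 0 of the 35 rose. With the aorta as a block, 23 rose and 2 fell against the other SMCs. Acta2 was at 25224 and 25378 CPM against 21393 and 20950 CPM in the other SMCs (log2 fold change 0.30 ± 0.05, edgeR adjusted p = 0.000841), and Tagln at 14081 and 13679 against 11577 and 10978 CPM (0.34 ± 0.05, adjusted p = 0.000941). The rises were small but larger than the gap between the aortas. Ppp1r14a, an inhibitor of myosin phosphatase, rose by 0.41 ± 0.08 on the log2 scale, Ryr2, a calcium release channel, by 0.66 ± 0.13 and Sncg, gamma-synuclein, by 0.81 ± 0.14. Tpm2, Cald1, Smtn and Mylk2 also passed, but of 14 alternatives Cald1 lost the call in 6, Tpm2 in 4 and Smtn in 3 (adjusted p up to 0.178, 0.518 and 0.521). Ryr2 lost it in 2 (up to 0.551) and Acta2 and Tagln in 1 each (0.101 and 0.0511). Mylk2, the skeletal form of myosin light chain kinase, was at 12.1 and 2.60 against 2.48 and 1.71 CPM, and its adjusted p was above 0.05 in 7 of 10 alternatives. Mylk, the smooth muscle form, was at 1206 and 1250 CPM against 1215 and 1226 CPM, and Myocd, the cofactor that drives the SMC programme, at 54.7 and 67.6 against 71.3 and 71.6 CPM, and neither passed.

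Receptors for vasoconstrictors differed in both directions. Of 24 listed, 12 were tested, 4 rose (P2rx1, Tbxa2r, Htr2a and Htr1b) and 1 fell (4 and 2 with the aorta as a block). Tbxa2r, the thromboxane receptor, was at 59.5 and 67.1 CPM in members against 40.9 and 44.4 CPM (log2 fold change 0.61 ± 0.12, edgeR adjusted p = 0.006). Ednra, the endothelin receptor of SMCs, was at 13.8 and 9.36 against 35.2 and 32.4 CPM (-1.48 ± 0.20, adjusted p = 0.000201). It was also lower than in the Dlx6/Msx2-positive SMCs. Against the Hand2/Tbx20-positive SMCs Ednra did not pass (edgeR adjusted p = 0.0837). With the aorta as a block it was higher in members than in those cells (log2 fold change 1.47, adjusted p = 0.008). The serotonin receptors Htr2a and Htr1b were at 9.91 and 10.9 against 4.32 and 5.48 CPM and at 39.6 and 39.0 against 24.9 and 31.3 CPM, and both lost the call under several alternatives (adjusted p up to 0.946 and 0.927). Of 14 alternatives Tbxa2r lost the call in 2 and Ednra in 1 (adjusted p up to 0.248 and 0.178).

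Genes of the extracellular matrix went both ways, with more called lower than higher. Of 50 listed, 47 were tested, 5 rose and 11 fell (10 and 18 with the aorta as a block), with a median log2 fold change of -0.11. Elastin (Eln) was at 2668 and 2484 CPM in members against 3302 and 3240 CPM (log2 fold change -0.30 ± 0.06, edgeR adjusted p = 0.00914). Of the other listed genes of elastic fibers, picked here after their values were seen, Fbln5 fell from 712 and 853 to 350 and 415 CPM (-0.99 ± 0.09, adjusted p = 7.57e-06), Mfap5 from 818 and 987 to 371 and 360 CPM (-1.26 ± 0.09, adjusted p = 3.05e-07) and Mfap2 from 34.6 and 41.5 to 11.6 and 14.0 CPM. Lox, which cross-links elastin and collagen, fell by 0.46 on the log2 scale, and Col1a2, Col15a1, Fbln1, Mfap4, Vcan and Spon1 also fell. Of 14 alternatives Lox and Spon1 lost the call in 2 each (adjusted p up to 0.483 and 0.277). Col1a2, Mfap4 and Eln lost it in 1 each (up to 0.956, 0.167 and 0.0767). Fbn1, Emilin1, Fbln2 and Loxl1, also of elastic fibers, did not pass (adjusted p from 0.508 to 0.989).

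The 5 matrix genes that rose were Tnc, Fn1, Col6a3, Lama5 and Mgp. Fn1, fibronectin, was at 873 and 1084 CPM against 581 and 665 CPM (log2 fold change 0.70 ± 0.09, edgeR adjusted p = 0.000199), Col6a3 at 234 and 243 against 151 and 155 CPM (0.68 ± 0.08, adjusted p = 0.000103) and Mgp, the inhibitor of calcification, at 7450 and 8904 against 6421 and 6946 CPM. The classes did not overlap for Fn1, Col6a3 and Mgp. Of 14 alternatives Mgp lost the call in 4 and Lama5 in 2 (adjusted p up to 0.281 and 0.849).

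**Figure D4:**
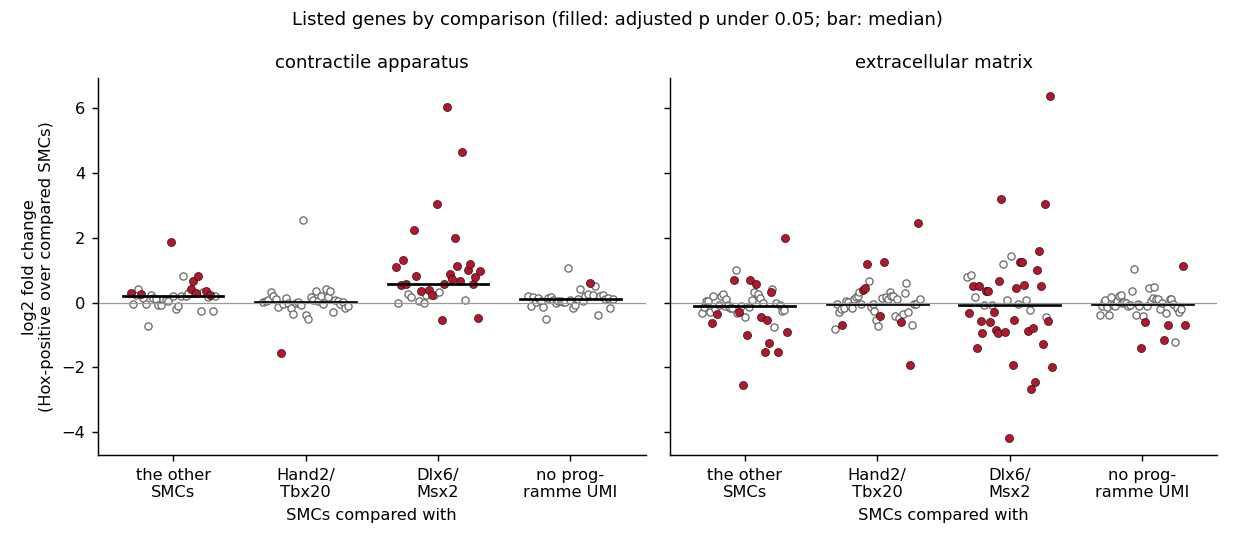
Log2 fold change of each tested gene of the contractile list (left) and the matrix list (right) in Hox-positive SMCs over the SMCs named on the x axis, with filled points at an adjusted p under 0.05 and a bar at the median. Mylk2 against the Dlx6/Msx2-positive SMCs is not drawn because those cells held 0 UMIs of it. Of 35 contractile genes, 24 rose and 2 fell against the Dlx6/Msx2-positive SMCs, and 9 rose and 0 fell against the other SMCs as a whole.

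The receptors of TGF-β, the pathway that the study disrupted, did not pass the test. Tgfbr1 was at 75.8 and 83.2 CPM in members against 85.0 and 90.3 CPM (adjusted p = 0.778), and Tgfbr2 at 41.8 and 50.9 against 45.7 and 46.2 CPM (edgeR adjusted p = 0.941). Of 41 genes of TGF-β and BMP signaling 39 were tested, 1 rose and 7 fell (2 and 11 with the aorta as a block; median log2 fold change -0.18). Grem1, a BMP antagonist, was at 0 and 1.04 CPM in members against 7.02 and 13.2 CPM, and it reached the filter on low counts only through the other SMCs. Ltbp2, a latent TGF-β binding protein of microfibrils, fell from 115 and 114 to 42.7 and 41.6 CPM (-1.40 ± 0.11, adjusted p = 9.82e-07), and Bmpr1b, Id4, Skil, Bambi and Ltbp4 also fell. Of 14 alternatives Ltbp4 lost the call in 5, Bambi in 4, Skil in 3 and Bmpr1b in 1 (adjusted p up to 0.269, 0.174, 0.220 and 0.148).

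Of 53 genes of other patterning signals 40 were tested, 5 rose and 6 fell (8 and 9 with the aorta as a block; median log2 fold change 0.05). Notch3, the Notch receptor of arterial SMCs, was at 35.8 and 45.7 CPM in members against 19.5 and 16.4 CPM (1.19 ± 0.17, edgeR adjusted p = 0.00032). Epha3, an ephrin receptor, was at 35.3 and 31.7 against 13.6 and 19.0 CPM. Sema3a, Igfbp7 and Hey2 also rose, the last with an adjusted p above 0.05 in 10 of 14 alternatives. Sfrp2, a secreted Wnt antagonist, was at 70.2 and 64.5 against 273 and 385 CPM (-2.23 ± 0.14, adjusted p = 9.82e-08), and Frzb, Rspo3, Sema3c, Sema3d and Igfbp5 fell as well. Of 14 alternatives Sema3d lost the call in 4 and Rspo3 and Igfbp5 in 3 each, and Igfbp5 turned direction in 2 more, to a log2 fold change of up to 0.70. The semaphorins thus differed in direction, with Sema3a higher and Sema3c and Sema3d lower in members.

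Against the Hand2/Tbx20-positive SMCs, members were higher in several Hox genes and differed in few genes of contraction. Of 10608 genes tested, 90 rose (0.848%) and 97 fell (0.914%), and 153 rose and 199 fell with the aorta as a block. Of 9 Hox genes tested, 5 rose (Hoxa5, Hoxb2, Hoxb4, Hoxb5 and Hoxc6) and 0 fell. The Hand2/Tbx20-positive SMCs held 2 and 3 UMIs of Hoxb5 and 1 and 0 UMIs of Hoxc6, which reached the filter only through the members. Of 40 patterning genes tested, 3 rose (Notch3, Sema3a and Epha3) and 1 fell (Sfrp2). The contractile list had 0 genes that rose and 1 of 35 that fell, which was Des, desmin, at 55.1 and 65.0 CPM in members against 217 and 119 CPM (log2 fold change -1.57 ± 0.23, edgeR adjusted p = 0.000442). With the aorta as a block 1 contractile gene rose and 4 fell, and 4 patterning genes rose and 2 fell. Of 13 stress genes tested, 0 rose and Fos and Dnajb1 fell (median log2 fold change -0.50), and with the block Cdkn1a rose and 5 fell, Atf3, Hspa1a and Hspa1b included.

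The genes that rose most against these cells were Sema3a, Hoxb5, Aknad1, Vegfd and Epha3. Sema3a gave 4 and 0 UMIs in the Hand2/Tbx20-positive SMCs (1.01 and 0 CPM) against 24.6 and 32.2 CPM in members. Epha3 was at 3.78 and 6.76 CPM there (log2 fold change 2.79 ± 0.28, edgeR adjusted p = 7.26e-06). Col6a1, Col6a2, Col6a3, Fn1 and Tnc rose among the matrix genes, and Fbln5, Mfap4, Spon1 and Ccn3 fell (7 higher and 8 lower with the aorta as a block). Fn1 was at 376 and 442 CPM in the Hand2/Tbx20-positive SMCs (1.24 ± 0.15, adjusted p = 6.1e-05).

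The genes that fell most were Tnnt2, Sphkap, 2210407C18Rik, Brip1 and Lpl. Sphkap and Brip1 were under the filter limit of 5.63 CPM in members and reached it only through other SMCs. Tnnt2, cardiac troponin T, was at 12.5 and 23.4 CPM in members against 261 and 104 CPM (log2 fold change -3.48 ± 0.46, edgeR adjusted p = 0.000115; 0.113 in DESeq2). The gene 2210407C18Rik was at 23.7 and 31.2 against 149 and 184 CPM (-2.62 ± 0.15, adjusted p = 5.62e-09), and Lpl, lipoprotein lipase, at 10.8 and 5.72 against 50.7 and 36.2 CPM. With cells thinned to 3000 UMIs the fall of Lpl was -0.90 on the log2 scale and did not pass (adjusted p = 0.524). The potassium channel gene Kcnj8 and the signaling regulator Rgs5, both known from small-vessel mural cells, rose: Rgs5 was at 692 and 679 CPM in members against 152 and 283 CPM. Against all other SMCs both genes fell, and the Dlx6/Msx2-positive SMCs held Rgs5 at 3160 and 2267 CPM and Kcnj8 at 229 and 217 CPM.

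The Dlx6/Msx2-positive SMCs stood furthest from the members. Of 10608 genes, 999 rose (9.42%) and 912 fell (8.6%). Of 35 contractile genes 24 rose and 2 fell, with a median log2 fold change of 0.58 against -0.02 over all genes. Acta2 was at 25224 and 25378 CPM in members against 12474 and 13802 CPM (log2 fold change 1.11 ± 0.06, edgeR adjusted p = 1.06e-10). Ppp1r14a was at 1279 and 1293 against 352 and 373 CPM (1.99 ± 0.09, adjusted p = 9.88e-12), and Mylk4, a myosin light chain kinase, at 192 and 204 against 26.1 and 28.3 CPM (3.03 ± 0.14, adjusted p = 9.88e-12). Pln, phospholamban, gave 2 and 0 UMIs in the Dlx6/Msx2-positive SMCs and 49.5 and 38.5 CPM in members.

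Matrix genes went both ways in that comparison, with 15 of 46 higher and 19 lower. Among those that fell, Eln was at 2668 and 2484 CPM in members against 5366 and 5516 CPM (log2 fold change -0.92 ± 0.09, edgeR adjusted p = 3.45e-07), Mfap5 at 371 and 360 against 2253 and 2266 CPM (-2.47 ± 0.11, adjusted p = 3.65e-12) and Fbln1 at 11.2 and 15.1 against 272 and 260 CPM. Of the listed basement membrane genes Lama4, Lama5, Lamb2, Nid1, Col4a1, Col4a2 and Col18a1 rose and Col4a5 and Col15a1 fell, while Lamc1 and Hspg2 did not pass, a grouping made after the values were seen. Of the 39 genes of TGF-β and BMP signaling tested, 5 rose and 16 fell. Ltbp2 was at 42.7 and 41.6 CPM in members against 368 and 277 CPM.

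Regional genes also set these classes apart. The genes that rose most were Tnc, Pln, Vstm2b, Sema3a and Enpep, and Tnc gave 2 and 0 UMIs in the Dlx6/Msx2-positive SMCs. Fgf12 and Coch, with 0 UMIs in members, were at least 21.6-fold and 22.0-fold lower and at least 14.9-fold and 22.0-fold lower in the 2 aortas. Mdga2, Eps8 and Gng2 were the others that fell most. Like Fgf12 and Coch, they were under the filter limit of 5.63 CPM in members and reached it only through other SMCs. Of 26 regional factors 4 rose and 14 fell, Prrx2 among them at 298 and 253 CPM in the Dlx6/Msx2-positive SMCs. Rbp4 was at 277 and 198 CPM in members against 10.5 and 42.0 CPM (log2 fold change 3.42 ± 0.32, edgeR adjusted p = 1.14e-07), and the Notch target Hey2 at 45.2 and 42.1 against 5.58 and 3.06 CPM. Of 13 stress genes tested 7 rose (11 with the aorta as a block), Atf3 from 49.0 and 49.6 to 211 and 120 CPM.

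The SMCs with no UMI of any programme differ from members in the rule by the Hox UMI alone. Of 10608 genes, 24 rose (0.226%) and 90 fell (0.848%), and 78 rose and 171 fell with the aorta as a block. Hoxc6, at 3.13 and 1.57 CPM in those cells, was the 1 Hox gene of 9 tested that rose (log2 fold change 2.22 ± 0.50, edgeR adjusted p = 0.0294), and it reached the filter only through the members. Hoxb5, at 13.5 and 16.1 CPM there, and Hoxa5, at 19.4 and 18.4 CPM, did not pass. These cells are also the shallower ones. How many of them express the 4 Hox genes, or the genes of the other 2 programmes, below the limit of 1 UMI was not measured.

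Of genes with at least 30 UMIs in members of each aorta, Sema3a, P2rx1, Vwc2, Lrrc32 and Ccn5 rose most against these cells. Sema3a was at 8.46 and 5.88 CPM in them (log2 fold change 1.96 ± 0.29, edgeR adjusted p = 0.00087), P2rx1 at 19.1 and 18.8 CPM (1.33 ± 0.19, adjusted p = 0.000505) and Ccn5 at 42.6 and 46.7 CPM (1.17 ± 0.15, adjusted p = 0.000285). Vwc2, a secreted BMP antagonist, was at 70.2 and 49.9 CPM in members against 27.6 and 22.0 CPM. Lrrc32 lost the call in DESeq2 (adjusted p = 0.170) and with at least 2 Hox UMIs, and P2rx1 with cells thinned to 3000 UMIs (adjusted p = 0.233).

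The largest falls were those of Gng2, Adamtsl1, Dlx5, Gpc3 and Tfap2b. All but Gpc3 were under the filter limit of 5.63 CPM in members and reached it only through other SMCs. In the Dlx6/Msx2-positive SMCs Gng2 was at 114 and 126 CPM. Adamtsl1 was at 35.4 and 30.6 CPM in the cells without a programme UMI against 3.45 and 3.12 CPM in members (log2 fold change -3.29 ± 0.36, edgeR adjusted p = 6.04e-05), and Dlx5 at 15.4 and 17.3 against 1.72 and 1.56 CPM (-3.23 ± 0.43, adjusted p = 0.000327). With cells thinned to 3000 UMIs the log2 fold change of Gpc3 went from -3.10 to -1.13 and did not pass (adjusted p = 0.198). Of the lists, 1 of 46 matrix genes rose (Tnc) and 5 fell (Fbln1, Fbln5, Mfap2, Mfap5 and Vcan), 0 of 26 regional factors rose and 5 fell, and 1 of 35 contractile genes rose (Ryr2). With the aorta as a block 5 matrix genes rose and 7 fell, 0 regional factors rose and 6 fell, and 4 contractile genes rose, Acta2, Tagln and Ppp1r14a among them. Osr1 was at 304 and 265 CPM there against 169 and 153 CPM in members.

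Some genes rose in all 4 comparisons, which share the member sums and so are not independent. They include Sema3a, Tnc, P2rx1, Ccdc3, Ccdc42, Ccn5, Lrrc32, Ndrg1, P3h2, Vwc2, Hoxc6, Igf2r, Itgbl1, Ncs1, Ptp4a3, Rgs17 and Slc22a2, a set listed after the values were seen. Hoxc6 reached the filter on low counts only through the members in each of the 4. Ccdc3 was at 285 and 324 CPM in members, 142 and 172 CPM in cells with no programme UMI, 88.1 and 103 CPM in the Hand2/Tbx20-positive SMCs and 12.4 and 18.3 CPM in the Dlx6/Msx2-positive SMCs. In that order the neighbouring classes did not overlap for Ccdc3. Rgs17, a regulator of G protein signaling, was at 17.7 and 13.0 CPM in members, 3.45 and 4.31 CPM in cells with no programme UMI, 5.05 and 0.614 CPM in the Hand2/Tbx20-positive and 0.620 and 0 CPM in the Dlx6/Msx2-positive SMCs. The values of the Hand2/Tbx20-positive SMCs overlapped those of both other classes for Rgs17.

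**Figure D5:**
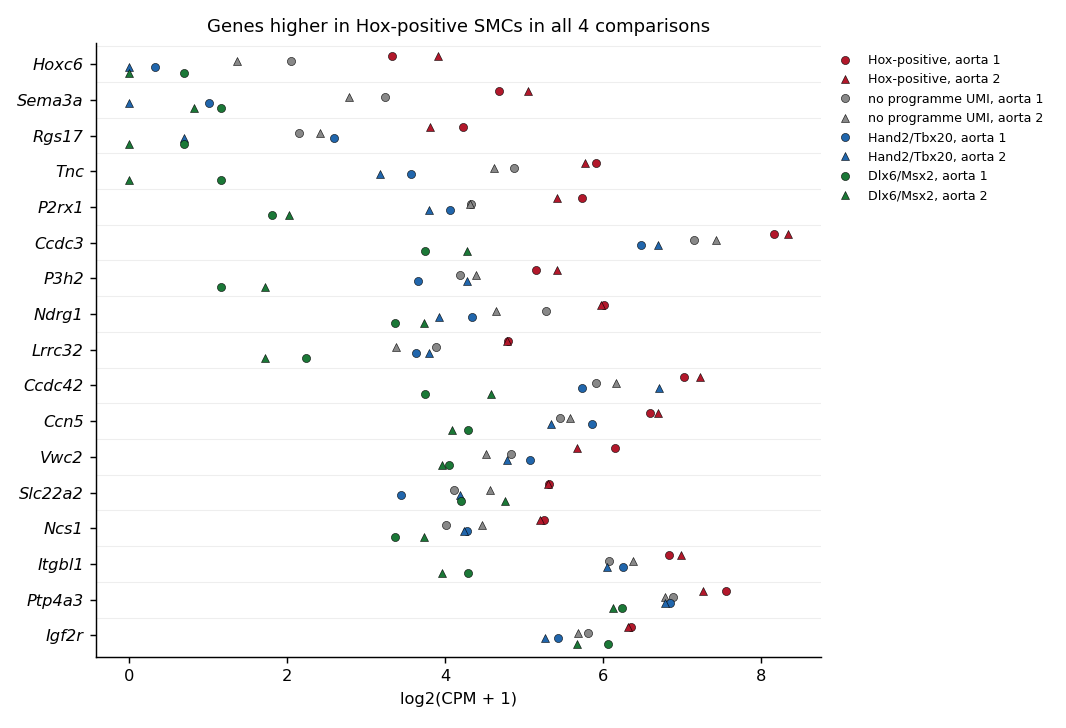
Level, as log2(CPM + 1), of genes that were higher in Hox-positive SMCs in all 4 comparisons, by class (colour) and aorta (circle, aorta 1; triangle, aorta 2), with genes in order of their log2 fold change against the other SMCs. Both Hox-positive values are the rightmost points in each row, and both Dlx6/Msx2-positive values are the lowest except for Sema3a, Hoxc6, Rgs17, Slc22a2 and Igf2r.

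Members with exactly 1 Hox UMI, those just inside the rule, had levels between the cells just outside it and the members with more Hox UMIs for some genes and not for others. Ccdc42 was at 59.2 and 70.6 CPM in cells with no programme UMI, at 106 and 86.3 CPM in members with 1 Hox UMI and at 179 and 220 CPM in members with 3 or more. Prrx2 was at 42.6 and 48.6, 9.88 and 26.4, and 7.20 and 3.21 CPM in the same order, and Adamtsl1 at 35.4 and 30.6, 7.68 and 5.57, and 0 and 1.61 CPM. Acta2 was at 21980 and 22622, 25436 and 25559, and 25053 and 25749 CPM in the same order. Sema3a was at 10.97 CPM in members with 1 Hox UMI of aorta 1 and at 33.4 CPM in those of aorta 2, against 8.46 and 5.88 CPM in cells with no programme UMI and 44.4 and 32.1 CPM in members with 3 or more. These are descriptions without a test, and depth rises with the number of Hox UMIs.

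Markers of other cell types were found at different levels in members. The 7 mesothelial markers summed to 3.02 and 2.60 CPM in members, with Lrrn4 and Upk1b at 0, against 60.8 and 27.6 CPM in the other SMCs, and 3 of 3 tested fell (Msln, Upk3b and Krt19). These 3 reached the filter on low counts only through the other SMCs. The sums were 60.3 and 3.69 CPM in the Hand2/Tbx20-positive SMCs and 50.8 and 6.28 CPM in those with no programme UMI. Against each of these 2 classes 0 of 5 tested passed (2 and 1 lower with the aorta as a block). Against the Dlx6/Msx2-positive SMCs 1 of 5 fell. The 12 immune markers summed to 98.7 and 54.1 CPM, with Cd3e and Cd79a at 0, against 204 and 88.7 CPM, and the 10 endothelial markers to 51.7 and 54.6 CPM, with Kdr at 0, against 60.3 and 65.3 CPM. None of the 9 immune and 4 endothelial markers tested passed, but 6 immune markers were lower with the aorta as a block. Of 10 fibroblast markers 1 rose (Serpinf1) and 3 fell (Pi16, Clec3b and Col14a1; 5 with the block), with sums of 1129 and 744 CPM in members against 1188 and 1159 CPM. Of 14 alternatives Pi16 lost the call in 7 and turned direction in 2 more, Clec3b in 3 and 2, Col14a1 in 1 and 1, and Serpinf1 lost it in 3, with log2 fold changes of up to 1.66 for Pi16, 1.69 for Clec3b and 0.27 for Col14a1. Msln, Upk3b and Krt19 each turned direction in 1 alternative. The 10 small-vessel mural markers summed to 1206 and 1220 CPM in members, 692 and 679 CPM of it from Rgs5, with Higd1b and Vtn at 0, against 1478 and 1508 CPM in the other SMCs. Of 8 tested, Olfr558, which reached the filter only through the members, rose and Rgs5 and Kcnj8 fell. The 5 erythroid markers summed to 226 and 62.9 CPM in members against 569 and 91.3 CPM, and 0 of 4 tested passed (4 lower with the block). Of 7 SMC markers outside the gate 4 rose (Acta2, Tagln, Tpm2 and Smtn) and 0 fell. The 1 cardiac marker tested, Ryr2, rose, with the lost calls given above, and the 1 neural marker tested, Ncam1, did not pass (adjusted p = 0.0927; 4.59e-07 with the block). The 6 neural and glial markers summed to 530 and 512 CPM in members, with Sox10 at 0, against 590 and 692 CPM, and Ncam1 made up 524 and 507 CPM of the members' sum.

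The comparison with the other SMCs was also run with some cells left out, in alternatives chosen after the data had been seen. Without SMCs holding a mesothelial UMI, 497 genes were called against the other SMCs, of which 491 were among the 593. Without those holding an immune UMI the count was 374, of which 356 were shared, with 786 and 572 cells left in the gate. Of 13 stress genes tested, Cdkn1a, a cell cycle inhibitor, rose (159 and 191 against 127 and 141 CPM) and 0 fell, and with the aorta as a block 1 rose and 5 fell. Without cells that held more than 5 UMIs of Gdf15, Cdkn1a and Mdm2, 554 genes were called, of which 530 were shared, and the log2 fold change of Cdkn1a was -0.17 (adjusted p = 0.707).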

How the data were processed

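Single-cell RNA-seq was done on thoracic aortas of 2 WT GFPiSMC mice. The authors made the deposited UMI counts with Cell Ranger 4.0.0 on mm10 with eGFP and tdTomato added, and worked further in Seurat 4.0; strand use in counting was not given in the sources used here. The files held 32287 features and 8947 and 6263 barcodes with 47009780 and 30919996 UMIs, which equal the labels' numbers of cells before filtering, and the labels give 6278 and 4300 cells after the study's filter. The filter used here left 5275 and 3524 cells. The members and gene lists were chosen with earlier results of these data known.

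UMIs were summed per aorta and class, since cells are not replicates. Members and other SMCs (4 sums), and 5 classes (10 sums), were tested with edgeR 4.0.16 (quasi-likelihood, TMM, filterByExpr, R 4.3.3), two-sided, with Benjamini-Hochberg adjustment over all genes tested and a threshold of 0.05. CPM are UMIs per 1000000 of the sum. The 18 genes of the rule and gate were left out of the tests. For a class at 0 the floor was 3 UMIs per sum. Genes named were the 15 largest in each direction against the other SMCs and the 5 largest in each other comparison (past the threshold, same direction in both aortas, at least 30 UMIs in the higher class of each aorta), and genes of the lists. The test was checked on simulated counts. Sums of the same aorta pair by animal, and their deviations correlated (r = 0.469 over 2373 genes), so the aorta as a block was run as an alternative. Other alternatives were DESeq2 1.42.0, RLE scaling, no filter, other UMI and eGFP limits, at least 2 Hox UMIs, thinning to 3000 UMIs, no exclusion and removal of Scrublet doublets (scanpy 1.11.5; 3.56% and 2.53% of cells called). Leaving out an aorta gave values with no test. With 2 mice, p-values rest on a small number of sums. Ddit3, Mir10a and Mir196b matched no feature. Some genes are not reported here.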

Additional observations from a re-analysis of the deposited data

How the results depend on the processing

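Against the other SMCs, DESeq2 called 111 genes higher and 178 lower in members (57 of the listed genes, 87 in the report), no filter on low counts called 548 lower and 137 listed, and the aorta as replicate block called 560 higher, 625 lower and 149 listed. At least 2 Hox UMIs gave 160 higher, the Hox UMI alone with no exclusion 161 higher, cells thinned to 3000 UMIs 42 higher, 68 lower and 35 listed, and cells with an immune UMI left out 147 higher and 227 lower. Against the Hand2/Tbx20-positive SMCs the counts were 57 higher and 64 lower in DESeq2, 148, 205 and 77 listed with no filter, 153, 199 and 64 listed with the block (32 in the report), and 30, 27 and 21 listed when thinned. With the block, all 593, 187, 1911 and 114 genes called in the 4 comparisons were still called. Against the Dlx6/Msx2-positive SMCs thinning gave 433 higher and 384 lower. Against SMCs with no programme UMI they were 10 and 59 in DESeq2, 74, 221 and 59 listed with no filter, 78, 171 and 51 listed with the block (22 in the report), 41 lower when thinned, and 12 and 58 without cells holding an immune UMI. The share of calls that were higher there was 21.1%, 31.3% with the block and 38.8% when thinned, and lay between 14.5% (DESeq2) and 25.8% in the others. The mean share of members fell from 20.5% to 13.0% with at least 2 Hox UMIs and to 11.8% when thinned, and the mean share of cells with a Hox UMI fell when thinned from 1.86% to 0.726% in immune cells, from 33.4% to 25.5% in endothelial cells and from 39.5% to 25.7% in fibroblasts. Thinning leaves fewer UMIs and sets the gate at 1 UMI; the cause of the other changes was not tested.

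Directions that turned against the other SMCs were those of markers of other cell types and of 2 further genes. With no exclusion the log2 fold change was 0.60 for Upk3b, 0.94 for Clec3b, 0.70 for Igfbp5, 0.84 for Msln and 0.72 for Pi16. When thinned it was 1.69 for Clec3b, 0.27 for Col14a1, 0.37 for Igfbp5, 0.081 for Krt19 and 1.66 for Pi16. Without cells holding over 5 stress UMIs it was -0.17 for Cdkn1a. Of the values of single genes under the alternatives with a test, 1693 kept direction and call, 190 lost the call and 11 turned. Without one aorta there was no test, and 169 values stayed within the spread and 76 moved beyond it. The alternatives that left out cells with immune, mesothelial or stress UMIs were chosen after seeing the data. Depth limits the rule itself, since 108 and 87 members held 1 Hox UMI.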
